A study of Mus musculus with 7 samples.

Results

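Promoters of 53 transcription factor genes that direct the development of tissues other than blood were examined in open chromatin profiles of HPC7 cells, out of 21938 protein-coding genes of the GENCODE M21 annotation of mouse build mm10. The genes were taken by name, and the rule used no measured value, although earlier results of these data were known when they were chosen. Each of the 53 was placed in 1 tissue group by a textbook role, although many act in several tissues. By group, 20 were neural or sensory, 9 endodermal, 11 cardiac or pharyngeal, 7 of muscle and skeleton, 4 renal and 2 of the gastrula. HPC7 is a mouse hematopoietic progenitor line, established from embryonic stem cell-derived progenitors by introducing the LIM-homeobox gene Lhx2 and grown in stem cell factor. Bulk ATAC-seq, in which the Tn5 transposase cuts accessible DNA, was performed on 7 libraries from separate cultures of this line (replicates 1, 2, 4, 5, 6, 7 and 8, here HPC7-1 to HPC7-8). The labels give no treatment and place all 7 libraries in 1 group, so no condition was compared. The peak names inside the lists carry a prefix VD in HPC7-1, HPC7-2 and HPC7-4 and EtOH in the other 4, which the labels do not explain and which was not used.

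Tissue identity is set by transcription factors of a few large families, among them the Pax, Sox, homeobox, forkhead, T-box, GATA and basic helix-loop-helix factors. Such genes often start within CpG islands, stretches rich in unmethylated CG dinucleotides, and in cells of another lineage they are commonly kept silent by Polycomb complexes. CpG island promoters of housekeeping genes, in contrast, are accessible in most cell types.

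A gene was called open in a library when at least 1 base of an open chromatin region (OCR, a peak of the deposited list) lay within 1 kb of any of its annotated start sites, and closed when no listed peak did. The size of a peak is given as its fold enrichment, the reads over the summit divided by the library's background, with 1 added to each. The lists held 84593 to 132852 peaks, and the weakest peak listed had a fold enrichment of 1.68 in HPC7-1 and 2.13 to 2.44 in the other libraries, so accessibility under these values was not detectable. Hematopoietic identity was checked on 12 progenitor genes, including Kit, Tal1, Lmo2 and Spi1, each of which was open in every library, at mean fold enrichments from 30.0 to 266. Of 5 pluripotency genes, Pou5f1 alone was open in every library (4.95) and Tdgf1 in 6 of 7 (4.20), and of 5 stromal genes Col1a1 (14.0) and Pdgfra (6.44) were. None of 5 lymphocyte genes was open in any library.

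In each library 12 developmental factors were open, and they were the same 12 in all 7: Pax6, Dlx1, Foxc1, Pax2, T, Foxa1, Tbx1, Six3, Neurog2, Dlx2, Sox17 and Lhx1. The other 41 factors were closed in all 7 libraries, and no factor was open in some libraries and closed in others. The open share was therefore 22.6% in every library. Among all protein-coding genes it was highest in HPC7-1 (60.7%), followed by HPC7-8 (59.7%), HPC7-7 (58.9%), HPC7-4 (58.6%), HPC7-2 and HPC7-5 (both 57.7%) and HPC7-6 (57.2%). The share of the developmental factors was lower by 36.0 ± 1.23 percentage points (SD, n = 7), in 7 of 7 libraries. Of all protein-coding genes, 55.9% were open in all 7 libraries and 38.2% in none, against 22.6% and 77.4% of the factors.

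By tissue, 5 of 20 neural factors were open (Pax6, Dlx1, Six3, Neurog2 and Dlx2), as were 2 of 9 endodermal (Foxa1 and Sox17), 2 of 11 cardiac and pharyngeal (Foxc1 and Tbx1), 2 of 4 renal (Pax2 and Lhx1) and 1 of 2 gastrula factors (T). All 7 muscle and skeletal factors were closed, including Myod1 and Myf5, which commit cells to skeletal muscle, Pax3 and Pax7 of muscle precursors, Pax1 and Pax9 of the sclerotome, and Sox9 of cartilage. Each factor was counted in its assigned group only, and the smaller groups hold few genes, so these counts do not rank the tissues. The closed neural factors were Sox1, Sox2, Sox3, Sox10, Sox11, Dlx5, Nkx2-2, Foxd3, Neurog1, Neurod1, Olig2, Otx2, Emx2, Lhx5 and Zic1. The closed endodermal factors were Nkx2-1 of lung and thyroid, Nkx6-1 and Pdx1 of pancreas, Foxa2, Hnf4a of liver, and Cdx1 and Cdx2 of intestine. In heart and pharynx, Nkx2-5, Gata4, Gata5, Gata6, Tbx5, Tbx20, Isl1, Hand1 and Hand2 were closed, and the remaining closed genes were Six2 and Pax8 of kidney and Gsc of the organizer.

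Many closed promoters were as rich in CG dinucleotides as the open ones. The 120 bases before the most 5′ start site are shown for Dlx2, which was open, and for Sox2, Zic1 and Isl1, which were closed in every library, to set an open promoter beside closed ones that hold at least as many CG dinucleotides. They are among the richest of the closed set. Each is written 5′ to 3′ on the strand of its gene, with CG dinucleotides in capitals.
Dlx2 (upstream, chr2:71546755-71546874, minus strand): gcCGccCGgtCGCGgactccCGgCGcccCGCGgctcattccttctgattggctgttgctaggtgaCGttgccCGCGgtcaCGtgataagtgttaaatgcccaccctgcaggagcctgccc
Sox2 (upstream, chr3:34650285-34650404, plus strand): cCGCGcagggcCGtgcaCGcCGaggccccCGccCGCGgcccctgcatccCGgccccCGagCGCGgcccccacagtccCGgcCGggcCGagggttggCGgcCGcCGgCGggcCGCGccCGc
Zic1 (upstream, chr9:91365811-91365930, minus strand): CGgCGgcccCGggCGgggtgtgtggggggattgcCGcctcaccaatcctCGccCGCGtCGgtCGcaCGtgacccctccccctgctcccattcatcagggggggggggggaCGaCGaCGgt
Isl1 (upstream, chr13:116309690-116309809, minus strand): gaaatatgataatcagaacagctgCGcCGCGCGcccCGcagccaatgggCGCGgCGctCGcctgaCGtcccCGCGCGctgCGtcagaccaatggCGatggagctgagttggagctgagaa
The stretch held 12 CG dinucleotides in Dlx2, 22 in Sox2, 14 in Zic1 and 15 in Isl1. Its GC content was 65.8% in Dlx2, 88.3% in Sox2, 75% in Zic1 and 64.2% in Isl1. Over the 12 open factors the stretch held 2 to 12 CG dinucleotides (median 7.5), and over 39 closed factors 1, at Myf5 and Hnf4a, to 22 (median 7). The stretches of Gata6 and Cdx1, which were also closed, were not included.

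The composition of all 53 promoters was measured over 1 kb around the most 5′ start site, and a promoter was called CpG-rich at a GC content of at least 50% and an observed over expected CpG ratio of at least 0.6. By this measure 39 of 53 developmental factors (73.6%) were CpG-rich, against 44.4% of all protein-coding genes. Of the 12 open factors 9 were CpG-rich (75%), against 66.7% of the genes open in all 7 libraries. Of the 41 closed factors 30 were CpG-rich (73.2%), against 15.3% of the genes open in none. The median ratio was 0.661 in the open and 0.681 in the closed factors, which overlapped over most of their range (0.473 to 0.934 and 0.166 to 0.961). Among all protein-coding genes, 84.1% of CpG-rich promoters were open in all 7 libraries, against 9 of 39 CpG-rich factors (23.1%). Among the other promoters, 33.5% of genes and 3 of 14 factors (21.4%) were open in all 7. The 3 were Pax6, Dlx1 and Foxa1, and the most 5′ start site of Pax6 is not the one with the peak. When the start site with the highest CpG ratio of each gene was taken instead, a choice made after seeing the data, all 12 open factors were CpG-rich. Then 12 of 45 CpG-rich factors (26.7%) and 83.2% of CpG-rich genes were open in all 7 libraries, against 0 of 8 other factors and 27.7% of other genes. By the most 5′ start site, the 30 closed CpG-rich factors belong to the 13.1% of CpG-rich promoters, 1278 of 9740, that were open in no library.

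**Figure D1:**
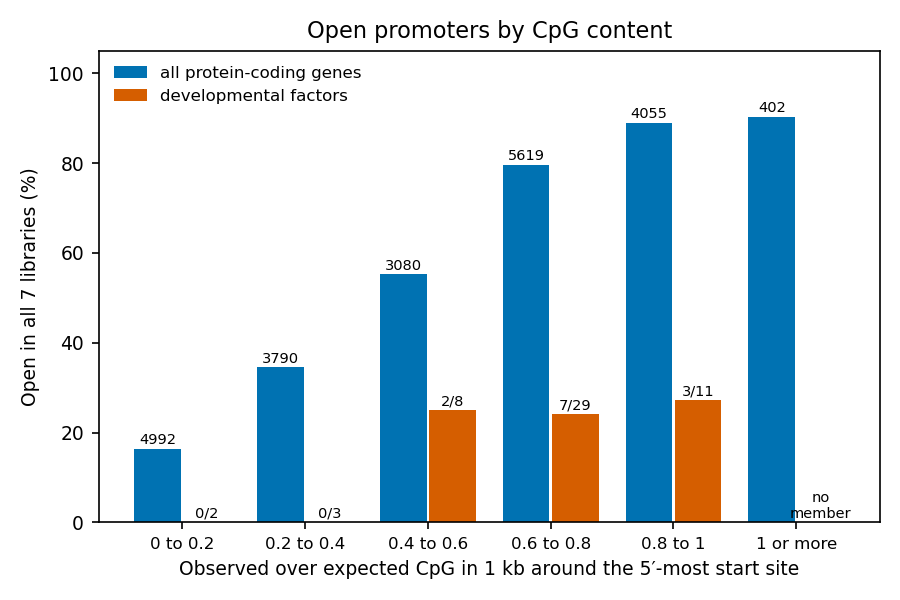
Share of promoters open in all 7 libraries (y axis, percent) by observed over expected CpG ratio around the most 5′ start site (x axis), for all protein-coding genes (blue, number of genes above each bar) and the developmental factors (orange, open over total). From 0.6 to 0.8 the bars stand at 79.6% of 5619 genes and at 7 of 29 factors, and from 0.8 to 1 at 89.0% of 4055 genes and 3 of 11 factors.

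The open factors differed widely in the size of their peaks. Pax6, a paired-box factor of eye, forebrain and pancreas, had fold enrichments of 74.5 at the lowest, 113 at the median and 140 at the highest of the 7 libraries, with a mean of 114 ± 25.2 (SD, n = 7). It was the one open factor above the median open protein-coding promoter, which averaged 76.1 ± 13.0, and it ranked at the 71.9 ± 3.99 percentile of open promoters. Its peak, at chr2:105674464-105679431 over all libraries, lay at a cluster of internal start sites, with its summit in an annotated UTR. The most 5′ start site of Pax6, at position 105668900, had no peak within 1 kb in any library.

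Dlx1 and Dlx2 are neighbouring homeobox genes of chromosome 2 that specify forebrain interneurons, and both were open. Dlx1 ranged from 42.4 through a median of 61.2 to 84.4, with a mean of 65.0 ± 14.9 and a rank at the 41.8 ± 3.15 percentile of open promoters. Dlx2 ranged from 10.5 through 14.3 to 18.5, with a mean of 13.7 ± 2.74, and the ranges of the pair did not overlap. The Dlx1 summit lay 210 bp upstream of a start site at the median, and the nearest start site was one of Dlx1 in all 7 libraries. The promoter also holds a start site of the antisense gene Dlx1as, so the signal cannot be assigned to either gene.

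The other 2 open neural factors had peaks well below that of Dlx1. Six3, a homeobox factor of the anterior forebrain and eye, ranged from 12.8 through 16.9 to 21.5 (mean 17.6 ± 2.69). Neurog2, a basic helix-loop-helix factor that starts neurogenesis, ranged from 9.86 through 15.0 to 20.7 (mean 15.9 ± 3.61). Both summits lay in coding sequence, 639 bp from a start site in Six3 and 1115 bp in Neurog2 at the median. The highest Neurog2 peak covered the start site in 4 of 7 libraries and began downstream of it in HPC7-5, HPC7-6 and HPC7-8. When the summit itself had to lie within 1 kb, Neurog2 was open in those 3 libraries only, through lower peaks, at a mean fold enrichment of 9.63 ± 3.81. The Six3 peak lay at an internal start site, since the most 5′ one, at position 85613608, had no peak within 1 kb. Start sites of the noncoding genes Gm27801 and Gm28528 lie within 1 kb of a Six3 start site.

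Among cardiac and pharyngeal factors, Foxc1, a forkhead factor of the anterior eye, vessels and paraxial mesoderm, ranged from 23.9 through 43.2 to 56.2 (mean 42.6 ± 11.1). Its peak was broad, 3048 ± 200 bp, and covered the single start site in all 7 libraries, while the summit lay in the coding sequence 1642 to 1737 bp downstream in 5 libraries and within 122 bp upstream of the start site in HPC7-4 and HPC7-6. Tbx1, a T-box factor of the pharyngeal arches, ranged from 14.2 through 26.2 to 31.0 (mean 24.1 ± 5.52). Its summit was placed tightly, 99 to 120 bp downstream of the most 5′ start site.

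Both open renal factors encode early regulators of the urogenital system. Pax2 ranged from 23.8 through 35.5 to 50.9 (mean 37.1 ± 8.08) and had the largest mean peak width of the 12, 3421 ± 93.9 bp. The Pax6 peak was wider than that of Pax2 in HPC7-1, HPC7-4 and HPC7-7. Lhx1, a LIM-homeobox factor, had the lowest mean fold enrichment of the 12 and ranged from 6.41 through 9.32 to 11.0 (mean 9.05 ± 1.68). It stood at the 60.6 ± 7.12 percentile of all peaks of a library, from 52.0 in HPC7-6 to 71.6 in HPC7-1, and in 4 of 7 libraries its summit was nearer to a start site of the divergent noncoding gene Lhx1os than to its own.

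Foxa1, a forkhead factor of gut endoderm that binds nucleosomal DNA, ranged from 18.6 through 26.1 to 33.5 (mean 26.1 ± 4.62). Sox17, which specifies endoderm and also acts in endothelium and fetal hematopoietic stem cells, ranged from 8.76 through 9.92 to 14.6 (mean 11.2 ± 2.61). Its peak was the narrowest of the 12, 630 ± 76.7 bp, and in 6 of 7 libraries its summit was nearest to a start site of the noncoding gene Gm37587. The T gene (brachyury), a T-box factor of the primitive streak and notochord, ranged from 24.1 through 30.1 to 40.6 (mean 30.6 ± 5.63). Its summit lay in an intron 1002 to 1028 bp from the nearest start site and its peak began 65 to 656 bp away from it, so T was called open by an intronic peak that covered no annotated start site in any library. With a window of 500 bp T was open in 4 of 7 libraries.

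**Figure D2:**
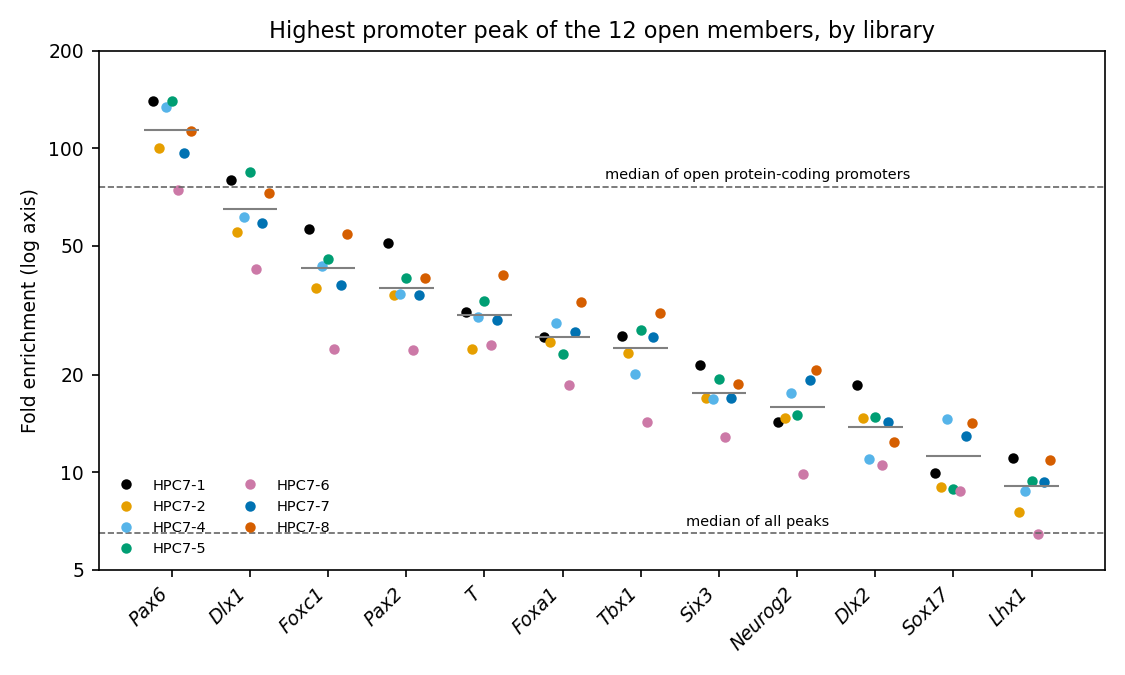
Fold enrichment (y axis, log scale) of the highest peak within 1 kb of a start site for the 12 open factors (x axis), 1 point per library, with a grey bar at the mean. Dashed lines mark the mean over libraries of the median open protein-coding promoter (76.1) and of the median peak. The mean of Pax6 lies above the upper line and the other 11 means lie below it.

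In every library 11 of the 12 open factors were below the median open promoter. The median open factor had a fold enrichment of 25.0 ± 4.70 (SD, n = 7), against 76.1 ± 13.0 for all open protein-coding promoters. It stood at the 18.5 ± 1.90 percentile of open promoters and at the 81.3 ± 3.27 percentile of all peaks of its library, where the median open promoter stood at the 93.1 ± 0.921 percentile. Below Pax6 and Dlx1 the ranks ran from the 26.8 ± 3.91 percentile of open promoters at Foxc1 to the 9.97 ± 1.88 percentile at Lhx1. The median width, 1654 ± 223 bp in the factors and 1677 ± 175 bp in all open promoters, differed by less than the spread between libraries. Single factors varied in width. Pax2, Pax6, Foxc1, Six3 and Foxa1 had mean widths of 2537 to 3421 bp, those of Dlx2, Tbx1, Dlx1 and Neurog2 were 1417 to 1657 bp, and those of Sox17, T and Lhx1 were 630 to 997 bp. HPC7-6 gave the lowest value for 11 of the 12 factors (HPC7-2 for the other, T), and it also had the lowest median over all open promoters, 55.1.

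The order of the 12 was tested between neighbours by an exact sign-flip permutation test on the log2 differences over the 7 libraries, two-sided, with Benjamini-Hochberg adjustment over 11 pairs. The pairs and their direction came from the ranking of the means over the same 7 libraries, so the p-values are no independent test of that order. The p takes its smallest value whenever all 7 libraries share a sign, whatever the size of the difference. In 4 pairs the neighbours differed, each in 7 of 7 libraries and at the smallest p that 7 libraries allow (exact p = 0.0156, adjusted p = 0.0430): Pax6 exceeded Dlx1 by 0.82 ± 0.16 on the log2 scale (SD), Dlx1 exceeded Foxc1 by 0.62 ± 0.18, Foxc1 exceeded Pax2 by 0.18 ± 0.15, and Tbx1 exceeded Six3 by 0.44 ± 0.21. The other 7 pairs did not pass the exact test (adjusted p = 0.0982 to 0.281), so the order of Pax2, T, Foxa1 and Tbx1, and that of Six3, Neurog2, Dlx2, Sox17 and Lhx1, is not resolved step by step. With any 1 library left out 0 pairs passed, since the smallest exact p for 6 libraries is 0.0313 and 7 of the 11 pairs would have to reach it. The differences themselves stayed at 0.76 to 0.85 for Pax6 over Dlx1, 0.58 to 0.66 for Dlx1 over Foxc1, 0.13 to 0.21 for Foxc1 over Pax2 and 0.39 to 0.48 for Tbx1 over Six3.

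Sequence at the summits is shown for 4 open factors, T and Six3, whose summits held a RUNX motif in all 7 libraries, Lhx1, which held a CCAAT box in all 7, and Foxc1, which held an SP motif in all 7. For Foxc1 the stretch is that of the coding-sequence summit, and the matches of HPC7-4 and HPC7-6 lie near the start site instead. Each stretch spans 60 bases on both sides of the median summit and is written 5′ to 3′ on the strand of its gene, with motif matches in capitals.
T (summit, chr17:8436377-8436497, plus strand): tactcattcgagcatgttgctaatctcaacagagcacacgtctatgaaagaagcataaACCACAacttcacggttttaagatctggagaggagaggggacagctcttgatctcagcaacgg
Six3 (summit, chr17:85621610-85621730, plus strand): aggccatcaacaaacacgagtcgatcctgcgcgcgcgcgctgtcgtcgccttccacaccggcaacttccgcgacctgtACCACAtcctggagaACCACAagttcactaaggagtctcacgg
Lhx1 (summit, chr11:84525570-84525690, minus strand): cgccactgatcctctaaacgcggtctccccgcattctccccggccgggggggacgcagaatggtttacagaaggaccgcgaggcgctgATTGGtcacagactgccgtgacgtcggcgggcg
Foxc1 (summit, chr13:31808254-31808374, plus strand): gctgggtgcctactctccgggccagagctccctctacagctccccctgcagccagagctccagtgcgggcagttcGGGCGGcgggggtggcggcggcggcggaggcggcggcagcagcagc
The match begins at base 59 in T, at bases 79 and 94 in Six3, at base 89 in Lhx1 and at base 76 in Foxc1, counted from 1 at the first base shown. All these matches but that of Foxc1 are on the opposite strand, so the capitals show the reverse complement of the motif.

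Both strands of the 100 bases on either side of each summit were searched for motifs of blood regulators and of general promoter factors, and a match is a description of the letters only. RUNX (TGTGGT) was found at 2 to 3 of the 12 open factors, depending on the library, and at a mean of 10.2% of all open promoters. The motif of GATA factors (AGATAA) was found at 0 to 1 of them, at Pax2 in 1 library, and at 3.81% of promoters. The ETS motif (CCGGAAGT), the CTCF motif and the TATA box (TATAAA) were found at 0 factors in every library and at 6.23%, 1.54% and 2.84% of promoters. The CCAAT box was found at 2 to 5 factors and 30.2% of promoters, at Dlx1 and Lhx1 in all 7 libraries and at Dlx2 in 6. The SP motif (GGGCGG) was found at 2 to 4 factors and 54.9% of promoters, at Foxa1 and Foxc1 in all 7 libraries and at Dlx2 in 6.

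Wider windows include the 1 kb calls, so the closed factors were also compared with closed genes. A peak within 3 kb of a start site was present in all 7 libraries for 15 of 53 factors (28.3%) and 60.8% of all protein-coding genes. Within 10 kb the counts were 24 factors (45.3%) and 69.3% of genes, and within 50 kb 36 factors (67.9%) and 82.3% of genes. Among genes closed at 1 kb in every library, a peak within 3 kb was present in all 7 libraries for 3 of 41 factors (7.32%) and 7.42% of 8370 genes, within 10 kb for 12 factors (29.3%) and 24.5% of genes, and within 50 kb for 24 factors (58.5%) and 55.2% of genes. Beyond 1 kb the closed factors were thus close to other closed genes. The 3 factors gained at 3 kb in all libraries were Myod1, Hnf4a and Cdx1. Another 6 had a peak within 3 kb in some libraries only, Pax8 in 5, Neurod1 in 4, Lhx5 in 3, Dlx5 in 2, and Pax3 and Foxa2 in 1.

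**Figure D3:**
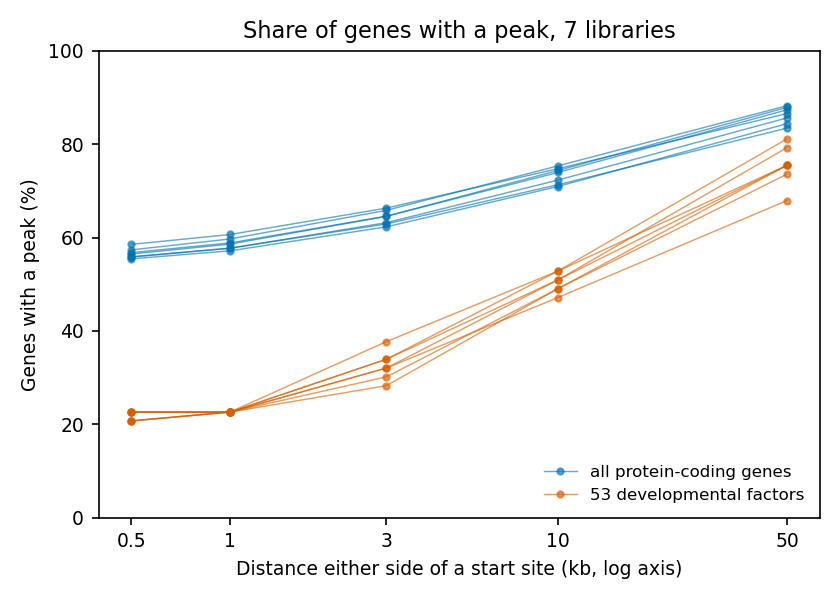
Share of genes with a peak (y axis, percent) within a given distance of any start site (x axis, kb, log scale), 1 line per library, for all protein-coding genes (blue) and the 53 developmental factors (orange). The orange lines lie below the blue ones at each distance and meet at 22.6% at 1 kb.

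For 10 of the 41 closed factors no library had a peak within 50 kb of a start site: Sox2, Sox3 and Sox11, Zic1, Otx2, Olig2 and Foxd3 of the neural list, Isl1 and Gata6 of the heart list, and Sox9. These were 18.9% of the 53 factors, against 10.6% of all protein-coding genes, but 24.4% of the closed factors against 27.7% of closed genes. The nearest peak was farthest from Zic1, a zinc finger factor of the dorsal neural tube, at a median of 538833 bp (538811 to 538910 over the libraries). It lay at a median of 487995 bp from Sox3, 452869 bp from Sox2, which maintains neural progenitors and pluripotent cells, and 401676 bp from Isl1, a LIM-homeobox factor of heart progenitors and motor neurons. At the other end, the median distance was 2057 bp for Cdx1, 2230 bp for Hnf4a and 2272 bp for Neurod1. Over all 41 the median was 22.1 kb, against 23.8 kb over all 8370 closed protein-coding genes.

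**Figure D4:**
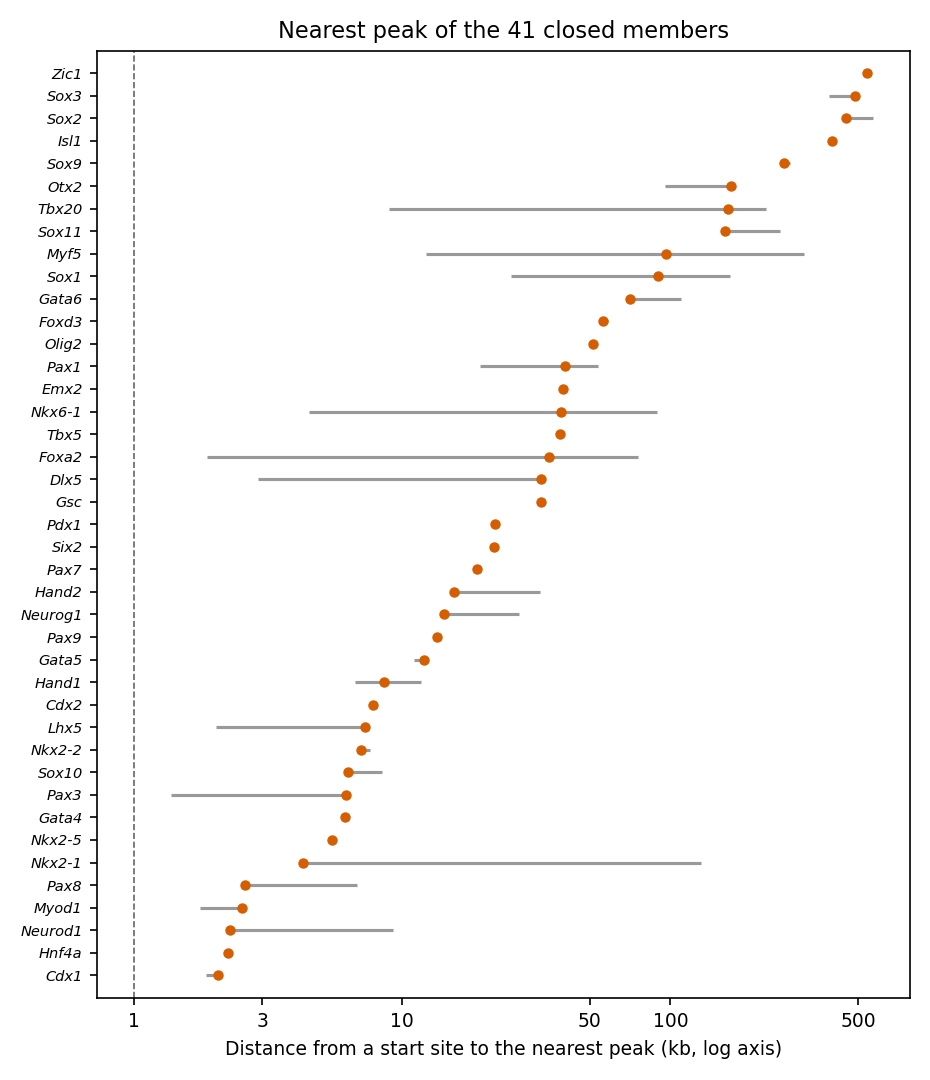
Distance from a start site to the nearest peak (x axis, kb, log scale) for the 41 closed factors, with the median over 7 libraries as a point and the lowest to highest library as a bar. The dashed line marks the 1 kb window. Points run from 2057 bp at Cdx1 to 538833 bp at Zic1.

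Start sites of other genes lay within 1 kb of those of 4 of the 12 open and 14 of the 41 closed factors. Among the closed were Neurod1, next to Cerkl, Zic1, next to Zic4, and Otx2, Emx2 and Hand2, next to the opposite-strand genes Otx2os1, Emx2os and Hand2os1. The same count was not taken over all protein-coding genes, so whether it is usual cannot be said.

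Peaks inside the gene were not rarer than in other closed genes. A peak within the gene body was present in all 7 libraries for 10 of the 41 closed factors (24.4%), against 19.0% of closed protein-coding genes, and in no library for 28 (68.3%), against 68.5%. The 10 were Pax3, Pax7, Pax8, Nkx2-2, Gata4, Tbx5, Myod1, Hnf4a, Cdx1 and Lhx5. Pax3 held 4 to 8 such peaks and Hnf4a 4 to 6, while their start sites were closed.

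Relatives of the factors that were not among the 53 were examined as family context. Of 76 relatives 27 were open in all 7 libraries (35.5%), 7 in some and 42 in none, a share between that of the developmental factors and that of all genes (55.9%). The strongest were Six5 (135 ± 25.1), Foxa3 (135 ± 22.4), Gata3 (114 ± 24.6), Foxd2 (101 ± 15.1) and Sox4 (92.2 ± 14.7). Neighbouring start sites were examined for the developmental factors only, so a relative's peak may lie at a promoter shared with another gene. In the GATA family the blood regulators Gata2 (52.2 ± 8.84) and Gata1 (17.1 ± 4.17) were open, as was Gata3, while Gata4, Gata5 and Gata6 were closed. Lhx2, the factor used to establish the line, was open (36.4 ± 8.55). The peak lists cannot separate reads of its own locus from those of the introduced copy. Pax5, the B-cell regulator, was closed in all 7 libraries.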

How the data were processed

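In all, 7 libraries of HPC7 cells were profiled by bulk ATAC-seq. The authors trimmed adapters with Cutadapt, used BWA-mem for alignment (mm10) and MACS2 for peak calling in each library; its options are not given in the sources used here, and the lists themselves hold no read totals. Columns of the deposited files hold the fold enrichment ratio of a peak, its score, the -log10 of p and q values and the summit. Fold enrichments were whole multiples of 1 step per library in 100% of peaks (tolerance 0.01), which gave a background of 4.44 to 20.4 reads and at least 12 to 35 reads at the summit of a listed peak. That background is lowest in HPC7-2 and highest in HPC7-1, so small peaks are most precise in HPC7-1.

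Peaks were joined to GENCODE M21 start sites with Python 3.11.15, pandas 2.3.3 and pysam 0.24.0, counting 1 shared base as overlap, and the highest peak represented a gene. Percentiles give the share of peaks at or below a value. Sequence was read from GRCm38.p6, the assembly of mm10. The joins and permutation test were tested on simulated data. The rule for named genes took all 53 factors, the relatives Gata1, Gata2, Gata3 and Pax5 and the 5 strongest relatives. Outside it, Lhx2, single marker genes and genes with start sites beside a factor are named, chosen after their values were seen. Members and lists were chosen with earlier results of these data known. Alternatives were other windows, the summit, the most 5′ start site, a stricter q value, equal peak numbers, other CpG rules and each library left out.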

Additional observations from a re-analysis of the deposited data

Results flagged for a closer look

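The width of the Foxc1 peak in HPC7-1 stood apart from the other 6 libraries, at 3485 bp against 3042 bp in the next widest. Of 27 series of 7 libraries examined in this way (fold enrichment and width of the 12 open factors, the open share of protein-coding genes and the median percentiles), this was the 1 series with such a library, and chance alone gives about 1 in 20.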

How the results depend on the processing

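No paired analysis was possible because the 7 libraries form 1 group, so replicate numbers pair no groups; the neighbour tests compare genes within each library. In no alternative did the difference between factors and all genes change sign. With a 500 bp window 21.8% of factors and 56.6% of genes were open and the median percentile among open promoters was 16.1, with T open in 4 libraries and 11 factors in all 7. With 3 kb the shares were 32.6% and 64.2%, their difference -31.6 points and the median percentile among all peaks 77.0. Counting summits within 1 kb gave 18.3% and 56.9%, a difference of -38.5 points, since T lost its call in 7 libraries, Foxc1 in 5 and Neurog2 in 4. With the most 5′ start site alone, Pax6, Six3 and T were lost, the shares were 17.0% and 54.0%, the median percentile was 16.5, and 2 of 6 testable neighbour pairs passed. With any library left out 0 neighbour pairs passed, as the smallest p for 6 libraries nearly prevents, and the 4 differences kept their sign. The share of all CpG-rich genes open in all 7 libraries was 88.0% at a CpG ratio of at least 0.75, 86.3% with 3 kb, and 83.2% with the start site of highest CpG ratio, chosen after seeing the data, where 12 of 45 factors (26.7%) were open. Neither a -log10 q of at least 5 nor the 84593 most significant peaks of each library moved a call of a factor; with the latter 57.1% of genes were open, the difference was -34.5 points, and the median percentiles were 16.3 among open promoters and 77.1 among all peaks. A closed promoter is one without a listed peak: fold enrichments under the lowest listed value were not detectable. Fold enrichment rests on different backgrounds in each library, so percentiles compare libraries more safely.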
